A study of Rattus norvegicus with 12 samples.

Results

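Cornified squamous epithelium genes were followed in the rat cervix as a set of 10: Ivl, Lor, Sprr1a, Cnfn, Tgm1, Tgm3, Spink5, Sbsn, Prss53 and Calml3. The members were chosen by name, and 8 of the 10 were found under their own symbol among the 26612 gene names on the arrays. The other 2 were matched by identifier: Prss53 by its RefSeq accession (its probe is named Pol3s) and Sprr1a by its RefSeq gene ID (its probe is named Sprr1al). Each member had 1 probe. Adult female Sprague Dawley rats were studied in 4 groups of 3. NP rats were nonpregnant, in proestrus by vaginal smear. D21 rats were pregnant, on day 21 after breeding, typically the day before birth. The cervix was trimmed free of vaginal folds, dispersed with collagenase and profiled on 1-colour Agilent arrays, either whole (NP rats 8, 9 and 10; D21 rats 5, 6 and 7) or after macrophages were removed with ED1 antibody and magnetic beads (NP rats 5, 6 and 7; D21 rats 1, 2 and 4). The depleted cells came from other animals than the whole cervix, and only the depleted cells went through the antibody and bead steps.

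In a stratified squamous epithelium, cells leave the basal layer, switch keratins and, in the last step, replace their membrane with a cornified envelope. Loricrin (Lor), involucrin (Ivl), small proline-rich proteins such as Sprr1a and cornifelin (Cnfn) are its building blocks, and the transglutaminases Tgm1 and Tgm3 cross-link them. Spink5 encodes an inhibitor of the kallikrein proteases that release surface cells, Sbsn is expressed in the suprabasal layers, Prss53 encodes a serine protease and Calml3 a calmodulin-like protein of epithelial cells. The lower genital tract of rodents carries such an epithelium, which thickens and cornifies with the estrous cycle and turns to mucus production in pregnancy.

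Levels are given as log2 of the signal relative to the 75th percentile of the same array, so that 0 is the brightness of the 75th percentile itself. They are compared between rats for 1 probe at a time, never between probes. The 75th percentile ran from 290 to 1171 intensity units over the 12 arrays, and 44.9% to 61.8% of probes were well above background. There were 4 slides and 3 days of scanning, and the 6 whole cervix arrays shared a day. In bulk samples such as these, fewer squamous cells and less RNA per cell cannot be told apart.

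The member with the widest range between whole NP rats was Lor. Its probe, at chr2:184953840-184953899 in rn4, is shown because it is rich in codons for glycine, the residue that makes up much of loricrin. Read from base 3 on, 10 of its 19 codons are GGN (in capitals), a number that 0.0955% of the 30367 distinct probes reached in any of the 3 frames of the printed strand.
Lor: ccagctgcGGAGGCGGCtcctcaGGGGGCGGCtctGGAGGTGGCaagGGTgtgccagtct

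Lor was high in some NP rats and not in others. In whole NP cervix it stood at 1.92 in rat 8, -4.91 in rat 9 and 4.32 in rat 10. It was well above background in rats 8 and 10 and not in rat 9. In whole D21 cervix it stood at -5.94, -5.18 and -6.22, well above background in none of the 3 rats. The 2 groups did not overlap, although NP rat 9 lay far closer to the D21 rats than to the other 2 NP rats. Over all 3 NP rats the mean of Lor was 26.3-fold above the lowest measurable signal of the D21 arrays. This is not a strict bound, as the mean includes the unmeasured value of rat 9. It has no test because only 2 NP rats measured the gene. In depleted cells Lor stood at -0.42, -4.30 and 1.35 in NP rats 5, 6 and 7, all well above background. The depleted D21 rats 1, 2 and 4 stood at -6.0, -4.49 and -2.90, with rat 1 not well above background. NP rat 6 lay among the depleted D21 rats.

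Ivl was not well above background on any of the 12 arrays, where its values ran from -7.66 to -5.04. Nothing could be read from its probe about the levels of involucrin RNA. Sprr1a was well above background on all 12 arrays. It stood at 4.91, 2.53 and 4.64 in whole NP rats 8, 9 and 10, and at 3.1, 4.55 and 3.31 in whole D21 rats 5, 6 and 7. In depleted cells it stood at 5.92, 2.92 and 4.56 in NP rats and at 4.06, 3.82 and 4.32 in D21 rats. The groups overlapped, and the lowest value of each preparation was again NP rat 9 or NP rat 6. RefSeq lists Sprr1b as another name of this gene, while the array carries a separate Sprr1b probe, so which copy each probe measures is uncertain. The Sprr1b probe stood at 3.47, -5.69 and 4.26 in whole NP rats 8, 9 and 10 and at -5.44, -3.94 and -5.50 in whole D21 rats, a wider range than that of the Sprr1al probe.

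Cnfn was detected in every rat. It stood at 4.51, -0.99 and 4.81 in whole NP rats 8, 9 and 10. In whole D21 cervix it stood at 1.00, 0.19 and 0.21, above NP rat 9 and below the other 2 NP rats. In depleted cells it stood at 3.65, -0.39 and 2.41 in NP rats 5, 6 and 7 and at 0.24, 1.31 and -0.16 in D21 rats 1, 2 and 4. NP rat 6 was thus the lowest of the 6 depleted rats.

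Of the cross-linking enzymes, Tgm1 was detected in every rat and Tgm3 in 10 of 12. Tgm1 stood at 1.23, -1.92 and 1.53 in whole NP rats 8, 9 and 10 and at -0.22, -1.10 and -1.64 in whole D21 rats. Tgm3 stood at 0.91, -4.25 and 1.88 in whole NP rats and at -3.63, -3.36 and -4.28 in whole D21 rats, with NP rat 9 and D21 rat 7 not well above background. For both enzymes NP rats 8 and 10 lay above every D21 rat and NP rat 9 did not. In depleted cells Tgm1 stood at 2.94, 0.73 and 1.79 in NP rats 5, 6 and 7 and at -0.01, 0.71 and 0.60 in D21 rats, groups that did not overlap. Tgm3 stood at -0.93, -4.46 and -0.16 in the same NP rats and at -3.96, -4.36 and -2.83 in the D21 rats, groups that did.

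Spink5 and Sbsn varied in both states. Spink5 stood at 3.69, -1.52 and 4.57 in whole NP rats 8, 9 and 10 and at -3.21, 1.21 and -2.36 in whole D21 rats 5, 6 and 7. In depleted cells it stood at 3.58, 0.98 and 4.32 in NP rats and at -4.72, -3.60 and 3.24 in D21 rats 1, 2 and 4. D21 rat 4 was thus within the range of the NP rats, 249-fold above D21 rat 1. Sbsn stood at 3.39, -2.40 and 4.29 in whole NP rats and at -0.99, 0.50 and -1.66 in whole D21 rats. In depleted cells it stood at 3.75, -3.10 and 2.27 in NP rats 5, 6 and 7 and at -2.75, -1.78 and 1.12 in D21 rats. The D21 rats with the highest Spink5, rat 6 in whole cervix and rat 4 in depleted cells, also had the highest Sbsn.

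Prss53 and Calml3 followed other patterns. Prss53 stood at -1.97, -2.92 and 0.62 in whole NP rats and at -5.42, -5.23 and -5.51 in whole D21 rats, none of which was well above background. In depleted cells Prss53 stood at -3.16, -3.01 and -2.27 in NP rats and at -3.68, -3.88 and -3.67 in D21 rats, of which rat 4 was not well above background. It was the only member whose 3 whole NP rats were all well above background and all above the D21 rats. Calml3 stood at 0.04, -1.29 and 0.75 in whole NP rats and at 0.79, 0.76 and 0.44 in whole D21 rats. In depleted cells it stood at 2.71, 2.77 and 2.71 in NP rats and at 2.07, 2.24 and 1.75 in D21 rats, so that every depleted sample lay above every whole sample.

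**Figure D1:**
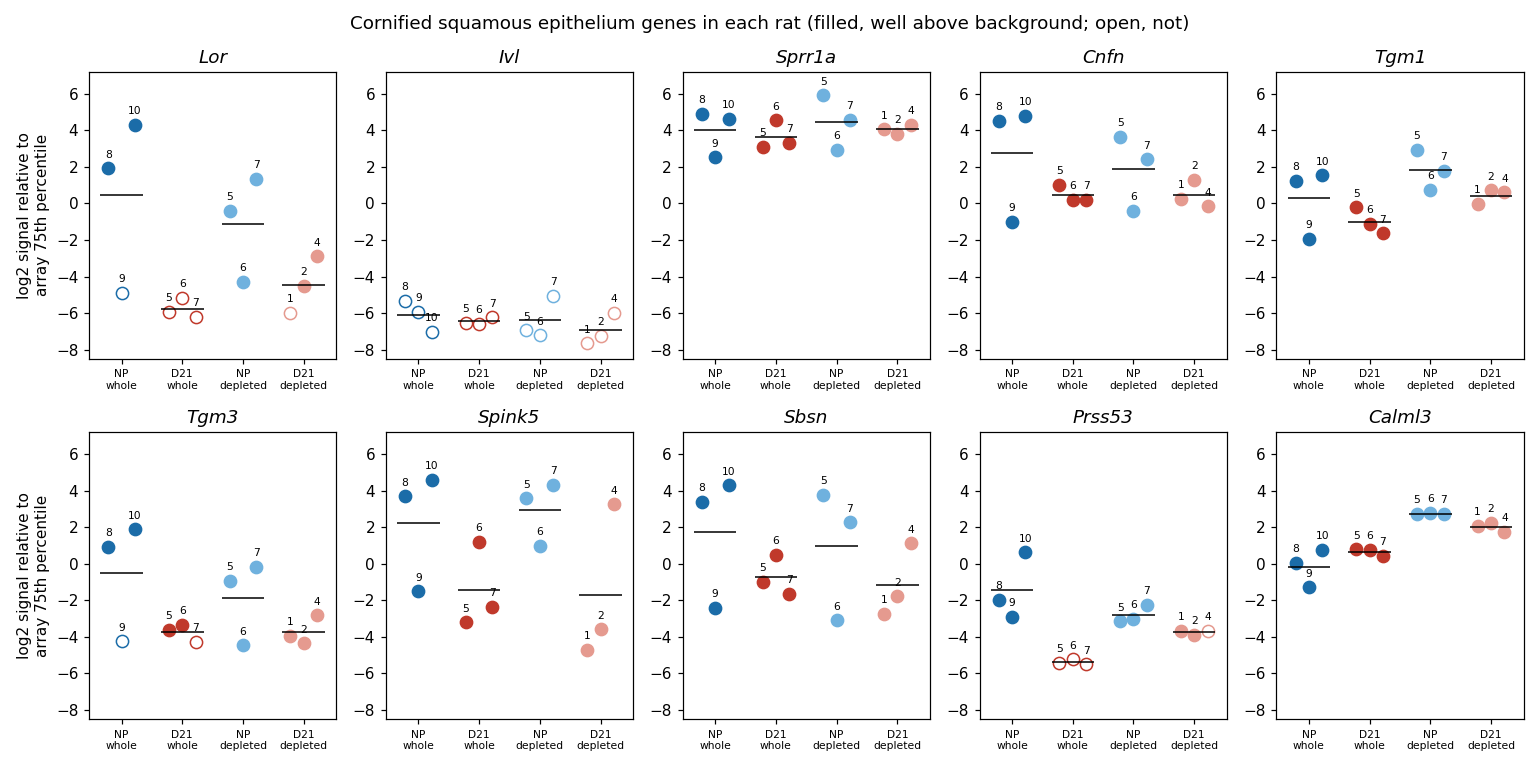
Log2 signal relative to the array's 75th percentile (vertical axis) of each of the 10 genes in the 4 groups (horizontal axis); each point is 1 rat with its number, filled where the probe was well above background and open where it was not, and bars are group means of 3 rats. For most genes, NP rat 9 in whole cervix and NP rat 6 in depleted cells sit below the other 2 rats of their group.

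The spread between the rats of one group was wide for these genes. In whole NP cervix the 14234 genes well above background in at least 2 rats had a median SD of 0.32 and a 95th percentile of 1.13 on the log2 scale. Lor had an SD of 4.79 there, which 0.0703% of those genes reached, and Sbsn an SD of 3.63, which 0.225% reached. Tgm3, Spink5 and Cnfn had SDs of 3.29, 3.29 and 3.27. Tgm1, Prss53 and Sprr1a, with SDs of 1.91, 1.83 and 1.30, also lay above the 95th percentile, and Calml3, at 1.03, lay below it. Between the highest and the lowest NP rat, Sbsn differed 103-fold, Spink5 68.3-fold and Cnfn 55.9-fold. For Lor and Tgm3, not well above background in rat 9, the difference was at least 308-fold and at least 56.8-fold, and their SDs rest on that unmeasured value.

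The spread in the other groups was smaller for most members. In whole D21 cervix, where the median SD was 0.19 and the 95th percentile 0.65, Cnfn had an SD of 0.46 and Tgm3 one of 0.47, while Spink5 reached 2.35 and Sbsn 1.11. In depleted NP cells Sbsn had an SD of 3.60, Lor 2.89 and Tgm3 2.29, against a median of 0.40. In depleted D21 cells Spink5 had an SD of 4.31, against a median of 0.49, and Sprr1a, Prss53 and Calml3 had SDs of 0.25 or less. In depleted NP cells Calml3 varied least of the members, with an SD of 0.03.

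**Figure D2:**
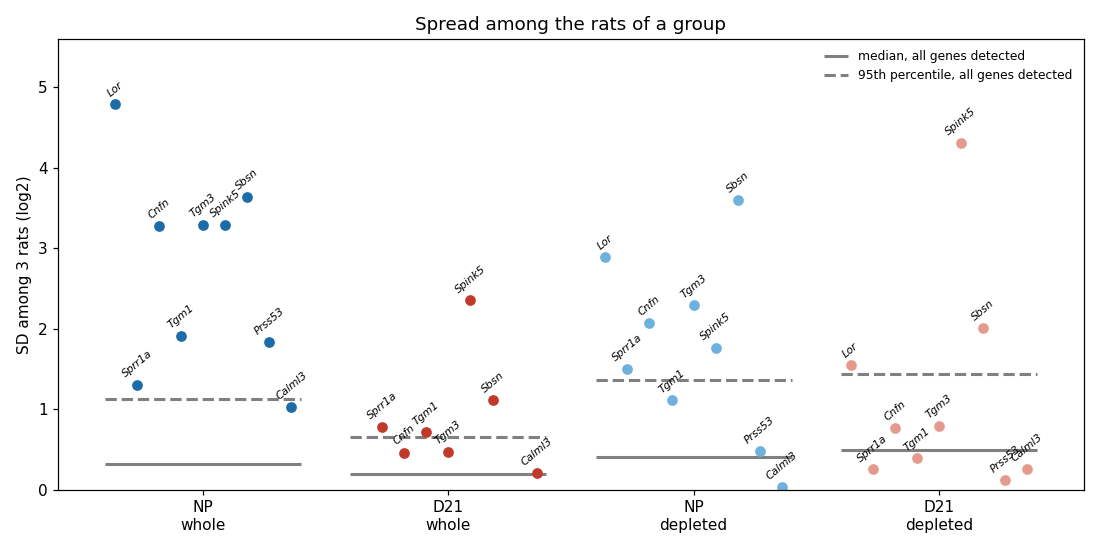
SD of the log2 signal among the 3 rats of a group (vertical axis) for each member in each of the 4 groups (horizontal axis), for members well above background in at least 2 rats of the group; grey lines are the median (solid) and the 95th percentile (dashed) over all genes that passed the same filter. In whole NP cervix 8 of 9 members lie above the dashed line.

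The low rats were low for most of the set. Of the 9 members detected on any array, NP rat 9 had the lowest value of the 3 whole NP rats for 9 of 9, and NP rat 10 the highest for 8 of 9. NP rat 6 had the lowest value of the depleted NP rats for 7 of 9, and the highest for Calml3. Over the 12 arrays, each member's values correlated with the mean of the other 8 members (each standardised) at r = 0.93 for Lor, 0.90 for Tgm3, 0.88 for Sbsn, 0.85 for Cnfn, 0.84 for Tgm1, 0.79 for Spink5, 0.77 for Sprr1a and 0.67 for Prss53, and at 0.20 for Calml3. These correlations are a description, since arrays of 1 group share state, preparation and in part slide. The 75th percentile was 309 in rat 8, 509 in rat 9 and 815 in rat 10. Rat 10, highest for most members, was thus also the brightest of these arrays, while rat 9 was not the dimmest. The part of array brightness in these differences was not tested. Rats 8 and 9 shared a slide.

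The D21 and NP states were compared first in whole cervix, the study's question about the prepartum cervix. A gene was tested where all 3 rats of a group were well above background, and was called at an unadjusted limma p under 0.01 with at least a 2-fold difference. Of the 10 members, 7 could be tested and 1, Prss53, was called, lower in D21, against 8.47% of the 14063 genes tested in either direction and 3.09% in that direction. Prss53 differed by -3.96 (SE 0.68; limma, adjusted p = 0.00968), and as no D21 rat was well above background it is given as at least 7.2-fold lower. The call was lost with normexp background correction, where the difference was -1.44 (limma, unadjusted p = 0.0662), and by the methods' Welch test.

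The remaining 6 tested members had D21 minus NP differences that did not pass. They were -3.70 for Spink5 (95% interval -8.37 to 0.96), -2.48 for Sbsn (-6.72 to 1.77), -2.31 for Cnfn (-5.33 to 0.71) and -1.27 for Tgm1 (-3.08 to 0.55). Sprr1a differed by -0.37 (-2.04 to 1.29), and Calml3 was on the other side at 0.83 (-0.07 to 1.73). The median over the 7 tested members was -2.31, against -0.08 over all genes tested. The intervals of Spink5, Sbsn and Cnfn spanned from large decreases to increases, so these data leave the size of the change in whole cervix undetermined. The NP and D21 groups did not overlap for 1 of the 7, against 44.3% of all genes tested.

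The number of calls changed most when NP rat 9 was left out. Without NP rat 9, 9 members could be tested and 5 were called, all lower in D21, against 10.0% of all genes tested without that rat, 4.17% lower. Lor and Prss53, well above background in no whole D21 rat, are given as bounds, at least 168-fold and at least 12.1-fold lower in D21. Tgm3, not well above background in D21 rat 7, differed by -5.15 (SE 1.04), Cnfn by -4.20 (SE 0.93) and Tgm1 by -2.37 (SE 0.59). Spink5 and Sbsn, at -5.59 and -4.56, still did not pass. Nothing in the labels sets rat 9 apart, so it stays in the comparison. Rat 9 had the lowest value of the whole NP rats for all 9 detected members, so leaving it out could only move their differences down. Lor and Tgm3, not tested over all 3 NP rats, became testable without it. The larger count is therefore no independent result. Without NP rat 10, Prss53 and Calml3 were called, the latter higher in D21 by 1.29 (limma, unadjusted p = 0.00509). Within the only slide that held whole cervix of both states, NP rat 10 stood against the 3 D21 rats. There, without replication on the NP side, D21 was at least 385-fold lower for Lor and at least 29.7-fold lower for Prss53. The D21 minus NP difference was -6.03 for Spink5, -5.63 for Tgm3, -5.01 for Sbsn, -4.35 for Cnfn, -2.52 for Tgm1, -0.99 for Sprr1a and -0.09 for Calml3.

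**Figure D3:**
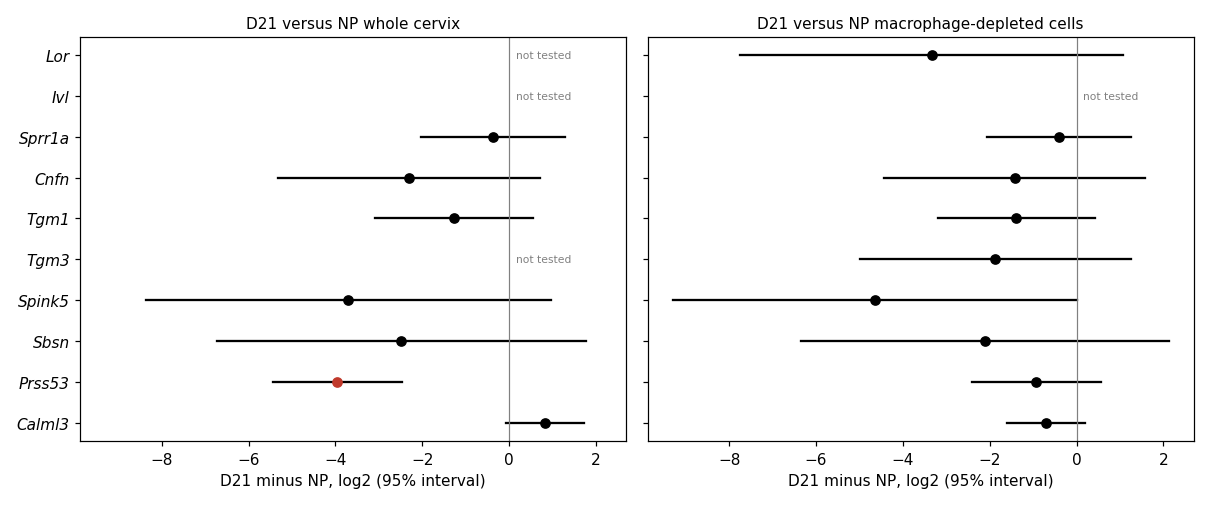
D21 minus NP difference in log2 signal (horizontal axis) for each of the 10 genes (vertical axis) in whole cervix (left) and in macrophage-depleted cells (right), 3 rats against 3; points are limma estimates, lines their 95% intervals, and red marks the gene that was called. Only the interval of Prss53 in whole cervix and that of Spink5 in depleted cells end below 0 (the latter at -0.00).

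In depleted cells 9 members could be tested between D21 and NP, and limma called none, against 7.52% of the 13413 genes tested. At an unadjusted p under 0.05, which 21.7% of all genes tested reached, it found 1, Spink5, at -4.65 (interval -9.30 to -0.00; adjusted p = 0.23), and the methods' Welch test called none. All 9 means were lower in D21, with a median of -1.42 against 0.02 over all genes tested. Lor differed by -3.34 (-7.74 to 1.06), Sbsn by -2.11 (-6.34 to 2.12), Tgm3 by -1.87 (-4.99 to 1.25), Cnfn by -1.42 (-4.43 to 1.58) and Tgm1 by -1.39 (-3.19 to 0.42). The groups did not overlap for Tgm1, Prss53 and Calml3, 3 of 9 tested members, against 17.1% of all genes tested. Without D21 rat 4, whose Spink5 was as high as in NP rats, Spink5 was called at -7.12 (limma, unadjusted p = 0.00321). Within the slides that held both states, D21 was lower than NP by 5.87 for Spink5 on the slide with NP rats 5 and 6 and D21 rat 2, and by 1.08 on the slide with NP rat 7 and D21 rat 4.

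Whole cervix was compared with depleted cells within each state. In D21, 7 members could be tested and 1 was called, against 17.7% of 14262 genes. In NP, 9 could be tested and 1 was called, against 24.4% of 13419 genes. The called gene was Calml3 in both. It was lower in whole cervix, 2.56-fold in D21 (log2 difference -1.36, SE 0.41; adjusted p = 0.0378) and 7.44-fold in NP (-2.89, SE 0.41; adjusted p = 0.000313). The D21 call was lost under 5 of the other settings and when any 1 of the 6 rats but depleted rat 4 was left out, with p between 0.0106 and 0.0529. In D21 no slide held both preparations. In NP the slide with whole rats 8 and 9 and depleted rat 7 gave a Calml3 difference of -3.33, and the methods' Welch test did not call it. The other tested members were not called in either state. Lor, Tgm3, Cnfn and Sbsn had intervals reaching at least 1.76 log2 units on both sides of 0 in NP.

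Other cells changed with the preparation. Over a list of basal-layer genes (such as Krt5, Krt14 and the integrin Itgb4), 9 of 16 tested genes were lower in whole than in depleted cells in D21 and 11 of 16 in NP, with none higher. Over a list of macrophage genes, 11 of 13 were higher in whole cervix in D21 and 9 of 11 in NP. Over a list of fibroblast genes, 3 of 10 were higher in whole cervix in D21 and 9 of 10 in NP. Over smooth muscle genes the counts were 6 of 9 and 9 of 9. Of all genes tested, 1100 of 14262 were called lower and 1430 higher in D21. In NP, 1444 of 13419 were called lower and 1824 higher. Calml3 thus differed in the same direction as the basal genes, but not as them alone. Regulators of epithelial differentiation were called lower in whole cervix for 9 of 18 in D21 and 11 of 17 in NP. Genes shared by epithelia were called lower for 2 of 18 in D21 and 12 of 17 in NP. The part of cell composition in the Calml3 difference was not tested.

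The difference between the whole and the depleted D21 versus NP effects was called for 1 of 9 members, against 7.44% of 14572 genes. That was Prss53, at -3.03 (SE 0.96; limma, unadjusted p = 0.00905), which did not pass after adjustment (adjusted p = 0.127). The D21 effect was -3.96 in whole cervix and -0.93 in depleted cells. As no whole D21 rat was well above background, the first value and the term are not exact sizes, and the whole cervix effect is bounded only at 7.2-fold. For Calml3 the term was 1.54 (interval 0.26 to 2.82; adjusted p = 0.187).

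The set was next placed beside related lists, given here by counts and by their median in each rat. Among 13 tested genes of a list of other envelope genes (Sprr, Lce and filaggrin families, envoplakin, periplakin), none was called between D21 and NP whole cervix by limma, and 4 had p under 0.05 (22.7% of all genes tested had); the methods' Welch test also called none. Without NP rat 9, 6 of 17 were called, all lower in D21, against 4.17% of all genes called lower without that rat. Slide as a block set NP rat 10 alone against the whole D21 rats, so its counts are left out for this list and the next. Of the desquamation list (kallikreins, serpins), 2 of 11 were called, both lower in D21, against 3.09% of all genes. These were Serpinb12, a serine protease inhibitor, at least 8.48-fold lower, and the kallikrein Klk14, at -3.68 (SE 0.89); the Welch test and normexp called none of this list. The fit on the 6 compared arrays called 4, 2 of them higher in D21, and no background filter called 7 of 21, all lower. Without NP rat 9 the count was 11 of 17, all lower, against the same 4.17%. Of the barrier lipid list 1 of 7 was called, the acyl-CoA thioesterase Them5, at -2.97 (SE 0.42). Of the squamous keratin and desmosome list 1 of 15 was called, Krt4, a keratin of the suprabasal layers of mucosa, at -3.38 (SE 0.78), which slide as a block did not call; without NP rat 9 the counts of these lists were 2 of 9 and 3 of 20. These 4 genes, named because they were called, were lower in all 3 D21 rats than in any NP rat, rat 9 included. Over all genes tested, 44.3% did not overlap between the groups in either direction. Krt4 and Them5 are also among the genes the paper lists as decreased in these arrays. In depleted cells Them5 and Krt4 were again lower in every D21 rat than in any NP rat, while Serpinb12 overlapped. There 17.1% of all genes tested did not overlap in either direction. Klk14 overlapped too, at -7.6, -7.25 and -5.1 in depleted NP rats and -4.95, -6.23 and -4.19 in depleted D21 rats. Rat 9 had the lowest median of the whole NP rats for each of these lists, so the larger counts without it are no independent result. With all rats, the median D21 minus NP difference was 0.01 for other envelope genes and -0.8 for desquamation. It was 0.2 for barrier lipids and -0.13 for squamous keratins and desmosomes, against -0.08 over all genes tested.

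Regulators of epithelial differentiation were called only higher in whole cervix. Of 17 tested, 6 were called higher in D21, against 5.38% of all genes called higher, and 11 were not called. The 5 with the largest differences were the transcription factors Grhl1 (1.82), Grhl2 (1.56), Tfap2a (1.41), Elf3 (1.37) and Klf4 (1.15). Of 16 basal-layer genes, 3 were called, all higher: the integrins Itga3 (2.21) and Itgb4 (1.10) and the cadherin Fat2 (1.38). Of a list of genes shared by epithelia, such as Cdh1 and Epcam, 13 of 18 were called higher. Markers of smooth muscle were called lower in 4 of 9, and those of skeletal muscle in 4 of 5. The 4 skeletal muscle genes, Unc45b, Tnnc2, Tnni2 and Casq1, are among those the paper lists as decreased in these arrays. Their count is therefore not independent of these data. All genes tested were called lower in 3.09%. In depleted cells these lists gave other counts, against 7.52% of all genes called in either direction and 5.45% called higher. Of 18 regulators 1 was called, lower in D21. None of 16 basal-layer genes was called by limma, and none had a limma p under 0.05. Called higher were 2 of 18 shared epithelial genes, 5 of 7 smooth muscle genes and 1 of 3 skeletal muscle genes. The part of epithelial share in these differences was not tested.

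Secretory genes formed the contrast to the set. Of 36 tested genes of a list of mucus and secretory genes, 25 were called higher in D21 whole cervix and none lower, against 5.38% of all genes called higher, with a median difference of 2.48 against -0.08 over all genes tested. The methods' Welch test called 9. Besides mucus genes the list held the keratins Krt7, Krt8, Krt18, Krt19 and Krt20, the claudin Cldn7, Upk1b and Sox9, all among those limma called. Several listed genes, Scgb3a1 among them, are in the paper's own list of genes increased in these whole cervix arrays. The count in whole cervix is therefore not independent of these data. The 5 with the largest differences were Gp2, a membrane glycoprotein of secretory cells (8.17, SE 1.42), Guca2b, the gut peptide uroguanylin (6.92, SE 1.34), both well above background in 1 of 3 NP rats, Fcgbp and Fcgbpl1, mucus-associated IgG-binding proteins (6.00, SE 0.64, and 5.26, SE 0.64), and Scgb3a1, a secretoglobin that was at least 18.1-fold higher, as no NP rat was well above background. Fcgbp stood at -1.27, 1.91 and -0.40 in NP rats 8, 9 and 10 and at 5.91, 5.91 and 6.41 in D21 rats. Every D21 rat was above every NP rat, and among the NP rats it was rat 9 that stood highest. In depleted cells 13 of 37 secretory genes were called higher in D21 and none lower, against 5.45% of all genes called higher.

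NP rat 9 stood apart from the other whole NP rats in opposite directions for the squamous and the secretory lists. The median over 37 secretory genes was -1.20 in rat 8, 1.71 in rat 9 and -0.02 in rat 10, and 2.66 to 3.09 in the whole D21 rats. The median over 15 other envelope genes was 3.4, -0.15 and 3.80 in NP rats 8, 9 and 10, and that over 18 squamous keratins and desmosome genes 2.12, -0.35 and 2.75. Rat 9 was thus lowest for the squamous lists and highest of the NP rats for the secretory list. The basal list, at 0.74, 0.92 and 0.88, differed little between these rats. Smooth muscle markers were 5.56, 5.20 and 5.44 and fibroblast markers 3.55, 3.31 and 3.50 in the same rats. In depleted NP cells this was not seen for rat 6 alone: secretory medians were -0.04, 1.35 and 1.34 in rats 5, 6 and 7, and other envelope genes 4.22, 1.29 and 3.98, so that rat 7 was high for both.

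**Figure D4:**
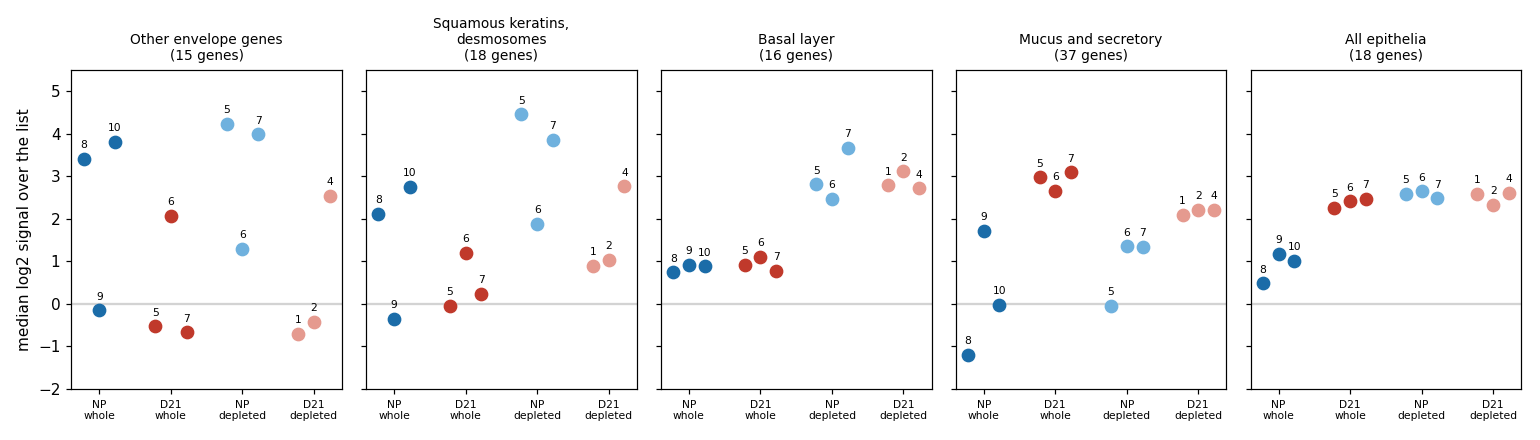
Median log2 signal (vertical axis) over each of 5 gene lists in each rat (points, numbered) of the 4 groups (horizontal axis). Among whole NP rats, rat 9 lies at -0.15 for other envelope genes and at 1.71 for secretory genes, while the basal medians lie between 0.74 and 0.92.

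Keratins of successive layers were read beside the lists. Krt5, the keratin of basal cells, stood at 5.31, 4.71 and 5.03 in whole NP rats 8, 9 and 10. Its basal partner Krt14 stood at 8.34, 5.11 and 7.51, lowest in rat 9. Krt10, the keratin of cells on the way to cornification, stood at 3.08, -4.77 and 4.14 in those rats, and at -6.57, -1.66 and -6.50 in whole D21 rats 5, 6 and 7. In depleted cells Krt10 stood at 4.88, -3.98 and 4.98 in NP rats and at -6.48, -5.63 and 2.74 in D21 rats. Krt10 was thus low in NP rats 9 and 6, and D21 rat 4 had a high Krt10, as it had a high Spink5. The 3 NP rats of a preparation differed in Krt5 by at most 2.02-fold, but the whole NP rats differed in Krt14 by 9.35-fold. Krt13, of the squamous keratin list, stood at 5.97, 5.72 and 5.9 in whole NP rats 8, 9 and 10, a range of 1.19-fold. It stood at 7.75, 5.82 and 7.18 in depleted NP rats 5, 6 and 7.

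The genes most like the set in pattern were ranked by the correlation of their log2 values with the mean of 9 standardised members over 12 arrays, out of 14485 genes, as a description with no test. The 10 highest were Sprr1b (r = 0.988), Mt4, a metallothionein of squamous epithelia (0.983), the epoxide hydrolase Ephx3 (0.965), the ubiquitin hydrolase Uchl3 (0.962), the stefin Stfa3 (0.954), Sprr3 (0.945), Calm4 (0.945), the airway trypsin-like protease gene Tmprss11d (0.943), the kinase gene Aurkc (0.941) and the connexin gene Gjb6 (0.940). Stfa3 stood at 4.12, -3.0 and 4.94 in whole NP rats 8, 9 and 10 and at -4.73, -1.85 and -4.46 in whole D21 rats. Uchl3 varied over a narrow range, from 2.38 to 3.79 over all 12 rats.

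Lor, Sprr1a and Ivl lie in the epidermal differentiation complex, a cluster of envelope genes. The array carried 21 probes in the 1100 kb of chromosome 2 (rn4) that begin at the Lor probe, and 18 of them were well above background on at least 1 array. NP rat 10 had the highest value of all 12 rats for 13 of these 18. The Sprr probes, up to 510 kb from Lor, were high in both NP rats 8 and 10. Farther on, the late cornified envelope genes were high in rat 10 alone: Lce1d stood at -1.42, -2.15 and 4.55 in NP rats 8, 9 and 10, and Lce1l at -4.19, -5.03 and 2.52. Kprp, a keratinocyte proline-rich protein gene, was well above background in rat 10 only, at 0.52, against -5.22 or less in the other 11 rats. Rats 8 and 10 were thus alike for Sprr1b (3.47 and 4.26) and Sprr3 (3.4 and 3.01), and unlike for the Lce genes.

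**Figure D5:**
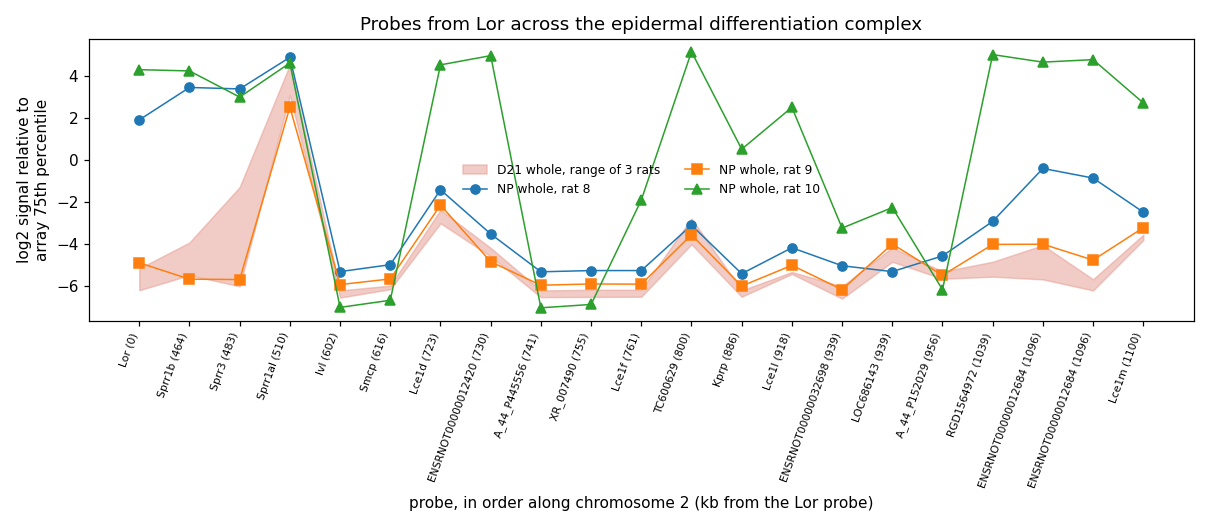
Log2 signal (vertical axis) of 21 probes in their order along chromosome 2, with their distance in kb from the Lor probe (horizontal axis), in the 3 whole NP rats (lines) and over the range of the 3 whole D21 rats (band). Rats 8 and 10 are both high from Lor to Sprr1al, and rat 10 alone is high at Lce1d, Kprp, Lce1l and several unnamed transcripts.

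Because the members moved together across rats, the 250 bases before their starts were searched in RefSeq sequence (GRCr8) for TGANTCA, which binds AP-1 factors and reads the same on both strands, and for TATAAA on both strands. All 10 members had a promoter entry, Sbsn with 2. TGANTCA was found in 3 of the 10, Lor, Sprr1a and Sbsn, and in 6.34% of 33469 promoters. TATAAA was found in 4, Lor, Sprr1a, Tgm3 and Spink5, and in 12.9% of promoters. Lor and Sprr1a are shown, as both motifs lie close together there (in capitals). The Lor stretch is chr2:180256573-180256652 and the Sprr1a stretch chr2:180752626-180752785, both on the minus strand, and each ends at the base before the gene's start.
Lor: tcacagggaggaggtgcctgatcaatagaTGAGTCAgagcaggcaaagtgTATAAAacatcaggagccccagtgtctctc
Sprr1a: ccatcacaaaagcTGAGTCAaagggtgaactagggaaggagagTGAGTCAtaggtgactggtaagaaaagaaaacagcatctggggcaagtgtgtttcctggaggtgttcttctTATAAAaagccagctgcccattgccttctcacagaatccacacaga

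In Lor the AP-1 motif begins 51 bases and the TATAAA 30 bases before the start. In Sprr1a AP-1 motifs begin 147 and 117 bases and the TATAAA 46 bases before it. A match describes these letters and is no evidence that a factor bound there.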

How the data were processed

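The authors hybridised RNA of 1 cervix per array to Rat Gene Expression 4x44K v3 arrays and deposited scanner intensity values from Agilent Feature Extraction 9.5.3.1, with probe positions in rn4. Their normalised table holds, per the deposited values, the ratio of intensity to the array's 75th percentile; 94.1% of its values lay within 0.011 of ratios computed here. Spots of a probe were averaged after outlier spots (294 to 648 per array) were left out, and log2 of the processed intensity minus the array's 75th percentile was used. For a gene with several probes the brightest was taken. Of 30367 probes, 17328 (57.1%) were named through RefSeq. One limma fit (version 3.58.1, R 4.3.3) over all 12 arrays gave each comparison, in which a gene was tested if well above background on all 3 arrays of a group, called at p under 0.01 with at least 2-fold, and given with Benjamini-Hochberg adjusted p over all genes tested. The fit was tested on simulated data. A bound sets the bright group's mean against the dim arrays' lowest well-above-background signal, or the probe's own where higher. Named genes were all members, up to 5 called genes per direction of each related list, and the 10 most similar genes. Krt5, Krt10, Krt13, Krt14, Lce and Kprp values outside that rule were chosen after they were seen. The members and lists were chosen with earlier results of these data known. With 3 rats against 3, an exact permutation test of 1 gene cannot go below p = 0.1. Rats were separate animals. The number of arrays limits the precision. Settings tried were the methods' Welch test, an adjusted threshold, the 6 compared arrays alone, normexp, quantile scaling, the percentile over detected probes, no background filter, the mean of all probes, slide and scan day as blocks, the authors' table and leaving out each rat.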

Additional observations from a re-analysis of the deposited data

Results flagged for a closer look

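For Prss53 the D21 versus NP difference in whole cervix was compared with that in macrophage-depleted cells, and passed the unadjusted threshold. The difference between the 2 effects was -3.03 on the log2 scale (SE 0.96; limma, unadjusted p = 0.00905, adjusted p = 0.127), and it did not pass adjustment over all 14572 genes tested. Prss53 was not well above background in any whole D21 rat, so the size of this value is not exact, and the depleted cells came from other animals. The unadjusted call held without any 1 whole NP rat or without depleted NP rat 7, and was lost without any 1 of the other 8 rats, with unadjusted limma p between 0.0152 and 0.0223.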

How the results depend on the processing

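No paired analysis was possible because the groups compared share no rat numbers. In whole cervix D21 versus NP, the number of members called was 0 instead of 1 by the methods' Welch test and with normexp, and 1 to 5 when 1 rat was left out (5 without NP rat 9). In depleted cells it was 0 to 1 when 1 rat was left out (1, Spink5, without D21 rat 4). For whole versus depleted in D21 it was 2 with the 6 compared arrays alone, 0 with normexp, quantile scaling, the percentile over detected probes, no background filter and scan day as a block, and 0 to 1 with 1 rat left out. In NP it was 0 by the Welch test and 1 to 2 with 1 rat left out (2 without NP rat 9). For the difference between the 2 pregnancy effects it was 0 with the adjusted threshold, normexp, quantile scaling, the percentile over detected probes, no filter and scan day as a block, and 0 to 2 with 1 rat left out. In the D21 versus NP comparisons the sign changed for Calml3 in whole cervix with slide as a block (-0.09), for Prss53 in depleted cells with normexp (0.36), and for Sprr1a when 1 rat was left out, with ranges of -1.12 to 0.07 in whole cervix and -1.17 to 0.33 in depleted cells. The cause was not tested. Of 327 values under other settings (tested members in the D21 versus NP comparisons, and called members elsewhere), 292 kept direction and call. Among members not called elsewhere, the sign changed in 18 of 102 values for whole versus depleted in D21, 18 of 136 in NP and 24 of 168 for the difference between the effects. The slide block left out D21 rat 1 in effect, as it was alone on its slide. The percentile over detected probes moved the median of all genes by over 0.1, to -0.14 in depleted D21 versus NP and to 0.13 in whole versus depleted D21.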
